A study of Homo sapiens with 6 samples.

Results

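MPO, ELANE, PRTN3, AZU1, CTSG, LYZ, SRGN, MS4A3 and SERPINB1 are 9 genes tied to the primary granule of myeloid cells. They were chosen by name, and the estimated counts of their transcripts were summed per gene in each library. All 9 passed the filter on low counts and are 9 of the 14497 genes tested. The polyadenylated RNA came from THP1, a monocytic cell line derived from a human acute myeloid leukaemia with a KMT2A fusion. ALKBH5, the gene under study, encodes a demethylase that takes the N6-methyladenosine mark off RNA. The groups are shCtrl (hairpin control, genotype given as wild-type), shALKBH5 (ALKBH5 knock-down by hairpin) and ALKBH5 rescue (ALKBH5 restored), each with 2 libraries whose titles carry replicate number 1 or 2. All groups share the same parental line and culture medium, and the labels give neither the hairpin nor the rescue construct. The labels do not say whether replicates are separate cultures. The p-values therefore reflect only how far these libraries vary, and that variation could be technical.

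Primary (azurophil) granules are made at the promyelocyte stage, when the genes for their proteases and for myeloperoxidase are transcribed, and THP1 cells keep part of this programme. The serine proteases are stored in active form on the proteoglycan serglycin after cathepsin C has removed their activation dipeptide. Myeloperoxidase takes up haem before it is cleaved and sorted, and cytosolic serpins inactivate proteases that leak from the granule.

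The libraries held 14534386 to 24857373 estimated counts. Levels below are in TPM (a transcript level that is corrected for length) when genes are compared with each other, and in CPM (counts relative to the scaled size of the library, with no correction for length) when libraries are compared. The targeted gene did not follow the labels. Under number 1, ALKBH5 gave 14.6 CPM for shCtrl, 12.4 for shALKBH5 and 13.6 for ALKBH5 rescue, and under number 2 in the same order 1097, 1003 and 967.7 CPM, a log2 difference of 6.24 between the numbers (SE 0.11, edgeR adjusted p = 1.507e-09). ALKBH5 level and every other difference between the numbers cannot be told apart in this design, and the groups are named throughout only as their libraries are labelled. Every label holds 1 library with low and 1 with high ALKBH5, so the comparisons between labels do not set low against high ALKBH5. Whether the titles match the libraries they are attached to could not be settled from the files. All 10 monocyte markers examined were expressed, with a summed level of 1579 to 1830 CPM. Between the numbers, 3 of them were called lower under number 2, CD14 (log2 difference -0.72), ITGAM (-0.65) and CD4 (-0.25), and 3 higher, CD33 (0.35), CD68 (0.29) and ITGAX (0.29). Over all genes tested, 45.4% were called between the numbers, 22.6% lower and 22.8% higher. Of 8 mature neutrophil markers, LTF was at 0 in every library and the sum was 84.7 to 85.6 CPM under number 1 and 112 to 128 CPM under number 2, most of it CSF3R (mean 92.1 CPM). The T and NK cell markers summed to 66.8 to 74.3 CPM under number 1 and 49.6 to 54.2 CPM under number 2, mostly NCAM1 (mean 39.8 CPM) with CD2 and CD3D at 0, and the other 4 marker lists stayed at or below 13.5 CPM. The part of these differences in the results below was not tested.

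Per length, LYZ (lysozyme, which cuts bacterial cell walls), SRGN (the serglycin core protein) and ELANE (neutrophil elastase) formed the top of the 9 genes. Their mean TPM over the 6 libraries was 1081, 822 and 818, which placed them 126th, 154th and 156th among 22448 genes with a TPM above 0. The ranges of SRGN (769 to 868 TPM) and ELANE (752 to 856 TPM) overlapped, and SRGN came first of all 9 in the library labelled shALKBH5 1. AZU1 followed with a mean of 422 TPM, PRTN3 with 244.5 TPM and CTSG with 82.0 TPM, in this order in all 6 libraries. Summed over all transcripts, SERPINB1 (36.1 TPM) exceeded MS4A3 (25.9 TPM) except in the libraries labelled shALKBH5 2 and ALKBH5 rescue 2, where the order was the opposite. Coding SERPINB1-201 gave only 12.07 to 14.03 TPM per library, and noncoding SERPINB1-205 gave 7.52 to 15.70 TPM. This order therefore rests partly on noncoding transcripts, and it was not tested for coding transcripts alone. MPO was last in every library with a mean of 1.53 TPM and ranked 12550th. The peroxidase gene and the protease genes were thus at very different levels: ELANE exceeded MPO 292-fold to 507-fold in TPM under number 1 and 595-fold to 1251-fold under number 2. MPO rested on only 27 to 64 estimated counts per library, against at least 182 for each of the other genes. Part of its TPM came from a transcript of 260 bases, MPO-202, whose 1.22 estimated counts gave 1.4 of the 2.58 TPM in the library labelled shALKBH5 1. In the library labelled shALKBH5 2, 2.53 estimated counts of MPO-205 (481 bases) gave 0.7188 of the 1.356 TPM. The main transcript, MPO-201, lay at 0.8909 to 1.1186 TPM under number 1 and 0.6368 to 0.6986 TPM under number 2. The fold values above therefore rest partly on short transcripts with few counts, and so does their difference between the numbers.

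**Figure D1:**
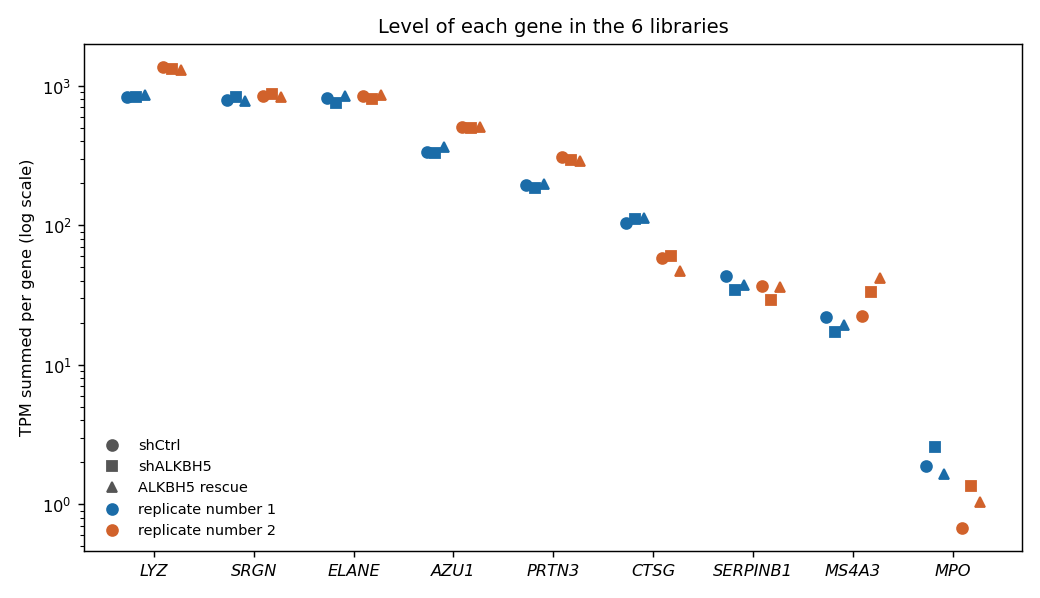
TPM summed per gene (log axis) in the 6 libraries, with the label as the shape and the replicate number as the colour, genes in the order of their mean. LYZ, SRGN and ELANE lie between 752 and 1359 TPM and MPO lies between 0.676 and 2.58 TPM, and the spread between numbers exceeds that between labels for LYZ, AZU1, PRTN3 and CTSG.

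AZU1, PRTN3 and ELANE lie on the plus strand of chromosome 19 (GRCh38, GENCODE) at chr19:825097-832018, chr19:840960-848175 and chr19:851014-856247, a span of 31151 bases. AZU1 encodes azurocidin, a protease homologue that has lost catalytic activity and kills bacteria by binding them, and PRTN3 encodes proteinase 3, the autoantigen of granulomatosis with polyangiitis. The 250 bases before the RefSeq starts of AZU1 and PRTN3 are shown because these neighbours differed between the numbers in the same direction. Their coordinates are chr19:827587-827836 and chr19:840749-840998 on the plus strand of GRCh38.p14, and capitals mark every match, on either strand, to the motif letters searched.
AZU1: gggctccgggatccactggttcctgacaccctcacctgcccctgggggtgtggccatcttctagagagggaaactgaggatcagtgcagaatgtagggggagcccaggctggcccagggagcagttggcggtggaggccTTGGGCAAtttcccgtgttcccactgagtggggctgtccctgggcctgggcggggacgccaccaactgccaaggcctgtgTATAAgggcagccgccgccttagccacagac
PRTN3: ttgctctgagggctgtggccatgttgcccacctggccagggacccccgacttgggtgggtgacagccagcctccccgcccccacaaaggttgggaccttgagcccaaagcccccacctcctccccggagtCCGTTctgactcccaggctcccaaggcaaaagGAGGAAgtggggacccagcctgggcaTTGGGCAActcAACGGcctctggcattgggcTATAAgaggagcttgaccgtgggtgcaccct
The motifs searched were GAGGAA for PU.1, TTNNGNAA for C/EBP, AACGG for MYB, TGTGGT for RUNX, AGATAA for GATA and TATAA for a TATA box. Both windows hold TATAA at bases -31 to -27, counted back from the start. In PRTN3 this TATAA falls within the first GENCODE exon of PRTN3-201 (chr19:840960-841069), so it lies after the GENCODE start. Both windows also hold TTGGGCAA, which lies at -111 to -104 in AZU1. These letters are themselves the match to the C/EBP pattern, so the 2 motifs overlap fully. TTGGGCAA was picked after both windows were seen and occurs in 0.769% of 35116 RefSeq promoter windows of the same length, against 33.2% for the C/EBP pattern and 18.9% for TATAA. PRTN3 also has GAGGAA, found in 23.6% of the windows, and AACGG on each strand, where 16.5% of the windows hold AACGG at least once on either strand. The RUNX letters, found in 11% of windows, occur in none of the 5 members that the RefSeq table holds (AZU1, PRTN3, CTSG, MS4A3 and SERPINB1), and such matches are descriptions of sequence only.

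AZU1 gave 236, 229 and 269.5 CPM for the libraries labelled shCtrl, shALKBH5 and ALKBH5 rescue under number 1, and 347, 316 and 314 CPM under number 2. The numbers did not overlap, while each label held a low and a high library. AZU1 was higher under number 2 by a log2 difference of 0.41 (SE 0.09, edgeR adjusted p = 0.00474), a call lost without the library labelled shALKBH5 1 (adjusted p = 0.093) or shALKBH5 2 (adjusted p = 0.0714). PRTN3 gave 131, 123 and 142 CPM under number 1 and 205, 180.2 and 172 CPM under number 2 in the same order of labels. All 3 libraries of number 2 lay above all 3 of number 1, with a log2 difference of 0.49 (SE 0.09, adjusted p = 0.00222). In these bulk libraries, fewer cells with a transcript and less RNA per cell cannot be told apart, here and for every member below.

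ELANE, the third gene of the cluster, was not called in either direction. It stood at 484, 448 and 537 CPM under number 1 and at 505, 449 and 461 CPM under number 2, so the numbers overlapped. The log2 difference between numbers was -0.05 (SE 0.09, 95% interval -0.25 to 0.14, adjusted p = 0.659). The TPM ratio of AZU1 to ELANE was accordingly 0.413 to 0.439 under number 1 and 0.592 to 0.617 under number 2, and that of PRTN3 to ELANE was 0.235 to 0.246 and 0.336 to 0.367. The TPM ratio of AZU1 to PRTN3 was 1.78 ± 0.06 under number 1 and 1.69 ± 0.07 under number 2 (SD, n = 3 libraries), whose ranges of 1.72 to 1.83 and 1.63 to 1.76 overlap. Between labels, ELANE was lower in both libraries labelled shALKBH5 than in any other, a log2 difference of -0.14 from shCtrl (SE 0.16) that did not pass the test (adjusted p = 1).

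The genes around the cluster showed no single direction between the numbers. CFD (complement factor D), the next gene beyond ELANE, stood at 54.7 to 62.0 CPM under number 1 and 84.9 to 92.4 CPM under number 2, a log2 difference of 0.60 (SE 0.09, adjusted p = 0.0006). MED16, a Mediator subunit gene beyond CFD, was lower under number 2 (log2 difference -0.26, SE 0.09, adjusted p = 0.042). PLPPR3 and PTBP1, on the other side of AZU1, had log2 differences of -0.09 (adjusted p = 0.428) and -0.22 (adjusted p = 0.0619) and were not called.

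CTSG (cathepsin G, a chymotrypsin-like protease) lies on the minus strand at chr14:24573522-24576260 beside mast cell chymase and the granzymes. Its 250 bases before the RefSeq start (chr14:24576251-24576500, minus strand, GRCh38.p14) are shown because CTSG went against AZU1 and PRTN3. Capitals mark GAGGAA or its reverse complement, the only motif of the 6 found here.
CTSG: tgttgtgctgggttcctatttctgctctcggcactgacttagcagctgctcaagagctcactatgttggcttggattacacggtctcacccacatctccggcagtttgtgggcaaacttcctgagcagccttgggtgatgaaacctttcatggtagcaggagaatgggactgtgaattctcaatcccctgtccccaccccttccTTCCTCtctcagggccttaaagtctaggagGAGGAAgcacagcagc
This window holds the PU.1 letters once on each strand and neither TATAA nor the C/EBP pattern. CTSG had 57.2, 60.8 and 67.3 CPM under number 1 for the labels shCtrl, shALKBH5 and ALKBH5 rescue, and 31.8, 30.3 and 23.3 CPM under number 2. Every library of number 2 was below every library of number 1, and the log2 difference of -1.13 was the largest in size among the 9 genes (SE 0.13, edgeR adjusted p = 0.000188). The TPM ratio of CTSG to ELANE was 0.136 ± 0.010 under number 1 and 0.066 ± 0.010 under number 2 (SD, n = 3). The library labelled ALKBH5 rescue was the highest under number 1 and the lowest under number 2, and its log2 difference between numbers was -1.53, against -0.85 for shCtrl and -1.0 for shALKBH5. Of the neighbouring genes, GZMH was at 0 CPM everywhere, and CMA1 and GZMB were above 0 in 1 library each, at no more than 0.11 CPM.

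MPO (chr17:58269856-58280935, minus strand) encodes the haem enzyme that makes hypochlorous acid. It had 2.97, 2.40 and 2.78 CPM under number 1 for the labels shCtrl, shALKBH5 and ALKBH5 rescue, and 1.70, 1.63 and 1.66 CPM under number 2. The numbers did not overlap, and MPO was lower under number 2 with a log2 difference of -0.70 (SE 0.23, edgeR adjusted p = 0.0305). This call was lost when any 1 of the 6 libraries was left out (adjusted p = 0.0668 to 0.118) and in DESeq2 (adjusted p = 0.253). LPO (lactoperoxidase), the adjacent gene, had a log2 difference of 0.56 in the other direction that was not called (adjusted p = 0.104).

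LYZ (chr12:69348341-69354234, plus strand) had 898, 899.5 and 1006 CPM under number 1 for the labels shCtrl, shALKBH5 and ALKBH5 rescue, and 1453, 1313 and 1251 CPM under number 2. All libraries of number 2 were above those of number 1, by a log2 difference of 0.52 (SE 0.10, edgeR adjusted p = 0.00235). SRGN (chr10:69088106-69104811, plus strand) gave 649, 683 and 682 CPM under number 1 and 685, 657 and 612 CPM under number 2. The numbers overlapped, and the log2 difference was -0.04 (95% interval -0.24 to 0.15, adjusted p = 0.705). The TPM ratio of LYZ to SRGN was therefore 0.991 to 1.11 under number 1 and 1.53 to 1.61 under number 2.

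MS4A3 (chr11:60056587-60071128, plus strand) encodes a membrane protein of granulocyte and monocyte progenitors. Its 250 bases before the RefSeq start (chr11:60056415-60056664, plus strand, GRCh38.p14) are shown because MS4A3 was high in only some libraries of number 2. Capitals mark 3 matches to the C/EBP pattern, AGATAA and the reverse complement of AACGG.
MS4A3: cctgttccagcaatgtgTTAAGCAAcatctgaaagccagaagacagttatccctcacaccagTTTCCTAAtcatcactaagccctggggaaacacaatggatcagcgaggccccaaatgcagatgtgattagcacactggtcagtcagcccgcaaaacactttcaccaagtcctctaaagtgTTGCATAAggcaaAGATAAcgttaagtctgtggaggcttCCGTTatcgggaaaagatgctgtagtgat
GENCODE starts do not all match the RefSeq starts: the windows shown for MS4A3, PRTN3 and CTSG contain the first base of the GENCODE gene, and that of AZU1 ends on the first base of AZU1-201 and lies within the GENCODE gene, whose first base is 825097. In MS4A3 the matches TTGCATAA, AGATAA and CCGTT lie after the first base of the GENCODE gene. MS4A3 had 13.2, 11.2 and 10.7 CPM under number 1 for the labels shCtrl, shALKBH5 and ALKBH5 rescue, and 12.8, 21.3 and 26.1 CPM under number 2. The libraries labelled shALKBH5 2 and ALKBH5 rescue 2 were high, and the other 4 lay between 10.7 and 13.2 CPM. MS4A3 was called higher under number 2, although its numbers overlapped in CPM because of the library labelled shCtrl 2. Its log2 difference between the numbers was 0.75 (SE 0.21, edgeR adjusted p = 0.0175). Within the labels this difference was -0.04 for shCtrl, 0.93 for shALKBH5 and 1.28 for ALKBH5 rescue. A test of 1 label's number difference against that of the other labels, with 1 residual degree of freedom, was added after these patterns were seen, so its calls restate them and are no independent support. For ALKBH5 rescue it called MS4A3 and CTSG of the 9 genes and 6.59% of all genes, for shCtrl no member and 0.0414% of all genes, and for shALKBH5 no member and 0.152%.

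SERPINB1 (chr6:2832332-2842006, minus strand) encodes the cytosolic serpin that inactivates elastase, proteinase 3 and cathepsin G. It had 40.9, 35.8 and 39.7 CPM under number 1 for the labels shCtrl, shALKBH5 and ALKBH5 rescue, and 35.4, 31.9 and 31.3 CPM under number 2. The numbers did not overlap in CPM but did in TPM, and the log2 difference of -0.24 was not called (SE 0.10, edgeR adjusted p = 0.0805).

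**Figure D2:**
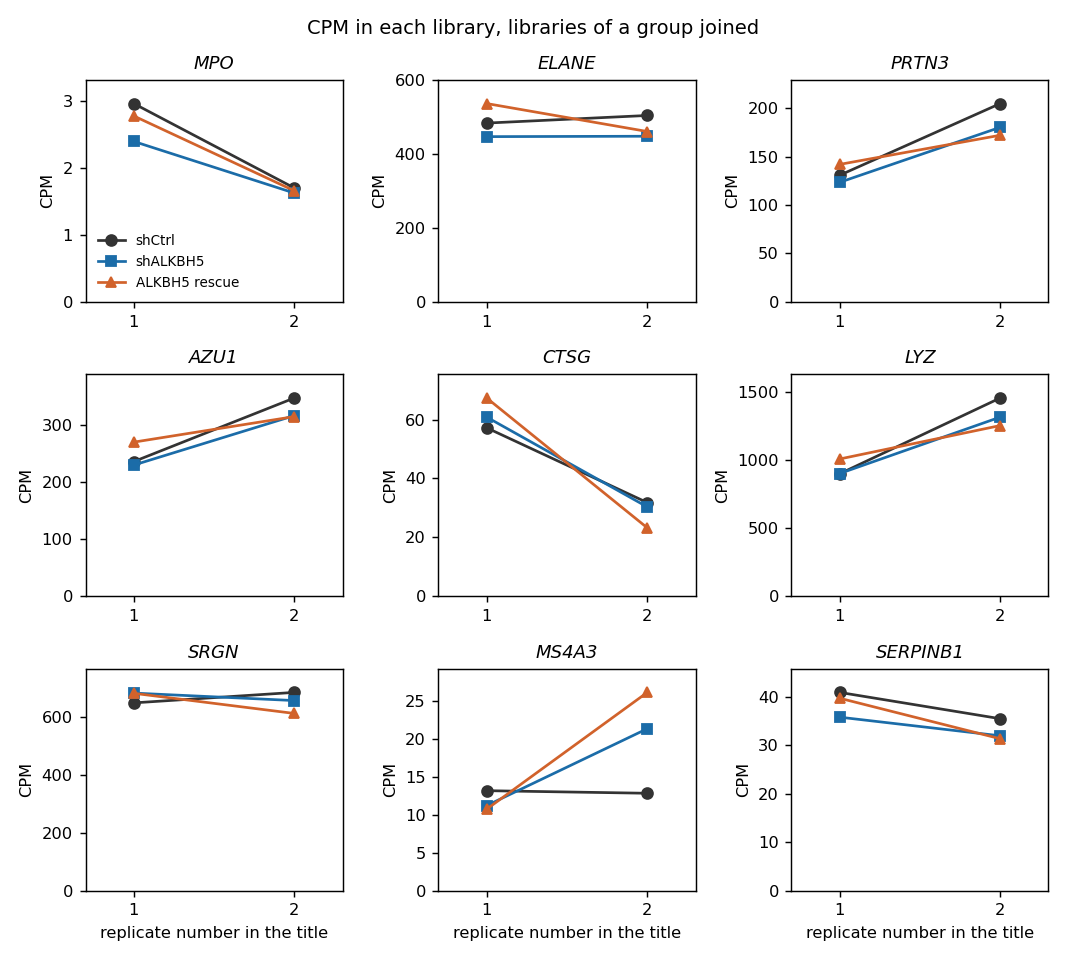
CPM of each gene (axes from 0) in the 6 libraries by replicate number, with the 2 libraries of a label joined by a line. The lines of LYZ, AZU1 and PRTN3 go up, those of CTSG and MPO go down, and for MS4A3 the line of shCtrl stays near 13 CPM while the others reach 21.3 and 26.1 CPM.

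In all, 6 of the 9 genes were called between the numbers, 4 higher (LYZ, MS4A3, PRTN3 and AZU1) and 2 lower (CTSG and MPO) under number 2. Over all genes tested the same call was made for 45.4%, with 22.8% higher and 22.6% lower. CPM did not overlap between the numbers for 6 of the 9 genes, against 57.7% of all genes. Which genes these are depends on the unit, as in TPM the numbers overlapped for SERPINB1 and did not for MS4A3. The median log2 difference was -0.04 over the 9 genes and 0.01 over all genes, and 4 of the 9 values were above 0.

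The comparisons between labels ask whether loss of ALKBH5 changed these transcripts and whether restoring it reversed the change, but ALKBH5 itself was not called between the labels, with a log2 difference of -0.17 for shALKBH5 against shCtrl within the numbers (SE 0.11, edgeR with replicate number as a block, adjusted p = 0.978). None of the 9 genes was called for shALKBH5 against shCtrl, for ALKBH5 rescue against shALKBH5 or for ALKBH5 rescue against shCtrl, and edgeR called 0% of all genes in each (0 of 14497, with 38, 43 and 46 genes at an unadjusted p under 0.05). DESeq2 and limma-voom also called 0 genes in each. The 3 comparisons share libraries, and in the order given the median log2 difference of the members was -0.09, 0.07 and -0.04, beside -0.03, 0.01 and -0.01 over all genes. ELANE alone had groups that did not overlap, in the first and in the second comparison, where 17.5% and 11.9% of all genes had such groups, and no member had them in the third, where 10.1% of genes did. The highest point estimates were those of MS4A3, with log2 differences of 0.32 (SE 0.49) for shALKBH5 against shCtrl and 0.50 (SE 0.49) for ALKBH5 rescue against shCtrl. The 95% intervals over the 9 genes reached from -1.43 to 1.53, from -1.47 to 1.46 and from -1.44 to 1.71, so changes of more than 2-fold lie within them for some members.

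With replicate number as a block, the intervals were narrower and still no member was called (lowest adjusted p = 0.978). The intervals then spanned -0.82 to 0.83 for shALKBH5 against shCtrl, -0.49 to 0.75 for ALKBH5 rescue against shALKBH5 and -0.68 to 0.97 for ALKBH5 rescue against shCtrl. Over all genes, the block fit called 0.0069%, 0% and 0.0069%. Without the library labelled ALKBH5 rescue 1, the block fit called MS4A3 for ALKBH5 rescue against shCtrl (log2 difference 0.78). That fit leaves 1 library under the label ALKBH5 rescue and takes its spread from the other labels. It therefore cannot decide whether MS4A3 differed by label. For ELANE the blocked interval for shALKBH5 against shCtrl was -0.38 to 0.10 and for AZU1 it was -0.33 to 0.16. Within the numbers, MS4A3 differed between ALKBH5 rescue and shCtrl by a log2 value of -0.29 under number 1 and 1.02 under number 2, and between shALKBH5 and shCtrl by -0.23 and 0.73. CTSG differed between ALKBH5 rescue and shCtrl by 0.24 under number 1 and -0.45 under number 2. These within-number values compare single libraries and carry no test.

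**Figure D3:**
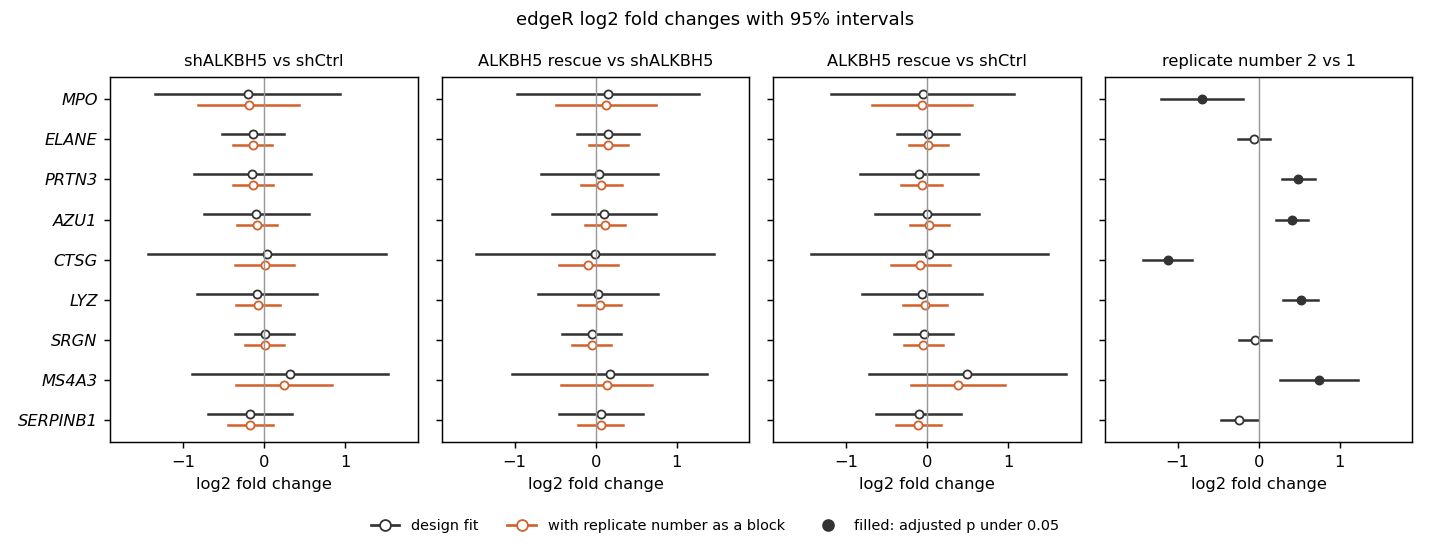
edgeR log2 fold changes (points) with 95% intervals (lines) of the 9 genes, for the 3 comparisons between labels, without and with replicate number as a block, and for replicate number 2 against 1. All intervals between labels include 0, while 6 points between the numbers are filled (adjusted p under 0.05).

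A single transcript held at least 91.8% of the estimated counts of MPO, CTSG, LYZ and SRGN in every library, whereas ELANE, AZU1 and PRTN3 were split between a pair. ELANE-201 and ELANE-202 share the same 5 coding exons and so the same protein. ELANE-202 adds a noncoding first exon of 21 bases at chr19:851014-851034 and starts its next exon at 852209 in place of 852291. In the libraries labelled shCtrl, shALKBH5 and ALKBH5 rescue, ELANE-202 took 22.6%, 24.2% and 23.2% of the estimated counts of the gene under number 1, and 33.5%, 33.0% and 32.0% under number 2. The numbers did not overlap, with means of 23.3% ± 0.8 and 32.8% ± 0.8 (SD, n = 3). In a fit over 58909 transcripts, chosen after the data were seen, the log2 difference between numbers was -0.19 (SE 0.08, adjusted p = 0.287) for ELANE-201 and 0.50 (SE 0.10, adjusted p = 0.116) for ELANE-202, so neither was called, and 0.0017% of all transcripts were. LYZ-201 and CTSG-201, the main transcripts of genes called between the numbers, were not called either (edgeR adjusted p = 0.0911 and 0.0940). This fit therefore cannot decide whether the ELANE transcripts differed. The share of AZU1-202, which begins 5′ of AZU1-201, was 32.5% to 34.8% in the 6 libraries. AZU1-202 ends in 1 exon (chr19:830708-832017), where AZU1-201 has an intron between 830941 and 831716. Its coding sequence ends at 830983 and that of AZU1-201 at 831874, so the AZU1 transcripts do not encode the same protein. The AZU1 sums per gene include both. PRTN3-202 took 13.2% ± 1.0 under number 1 and 11.2% ± 0.8 under number 2 (SD, n = 3). Its numbers did not overlap either, in the opposite direction to ELANE-202. Nor did those of LYZ-201, LYZ-202, SRGN-201, SRGN-202, MS4A3-206 and MS4A3-207, and how many of all transcripts show this was not counted. Reads that fit several transcripts are divided by an estimate, so these shares are less certain than the sums per gene.

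**Figure D4:**
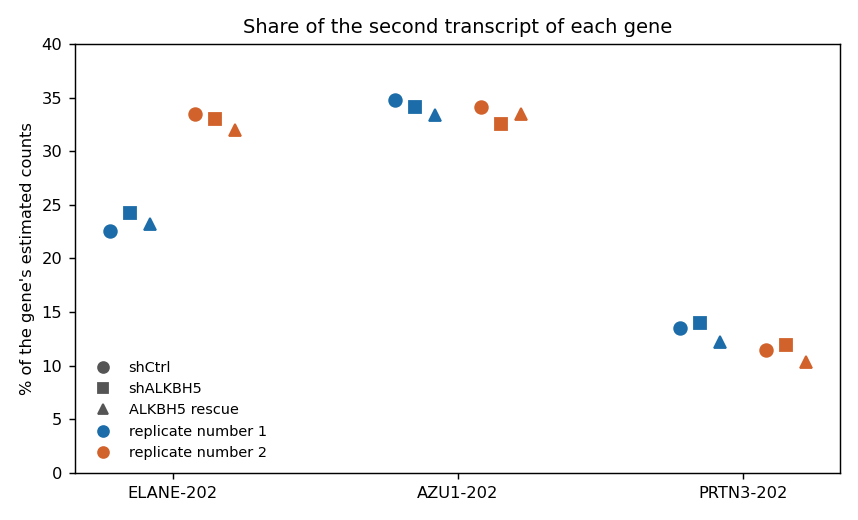
Share of the estimated counts of ELANE, AZU1 and PRTN3 that was assigned to the transcript ending in 202 (axis from 0, in %), in the 6 libraries. ELANE-202 lies at 22.6% to 24.2% under number 1 and at 32.0% to 33.5% under number 2, while AZU1-202 stays between 32.5% and 34.8%.

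Other genes of the granule pathway were taken from 10 lists, and none of their genes was called between the labels in edgeR, with or without the block. The counts between the numbers below are to be read against the 45.4% of all genes called, 22.8% higher and 22.6% lower. Between the numbers, 2 of the 5 tested genes of the other primary granule contents were called, both higher under number 2, a share near that of all genes. These were RNASE2 (eosinophil-derived neurotoxin, log2 difference 0.34, edgeR adjusted p = 0.0278) and RNASE3 (eosinophil cationic protein, log2 difference 0.56, adjusted p = 0.0168). RNASE2 had 187 to 247 CPM under number 1 and 249 to 294 CPM under number 2. Its 2 libraries labelled ALKBH5 rescue hardly differed, at 247 and 249 CPM. For RNASE3, the library labelled ALKBH5 rescue 1 (5.82 CPM) lay above shALKBH5 2 (5.62 CPM). The alpha-defensin genes DEFA1, DEFA1B and DEFA3, which are near-identical copies, were at 0 in all libraries. Of 17 contents of specific and gelatinase granules, which are made later than primary granules, 7 were tested, 1 was called higher (HPSE, heparanase, 0.49) and 2 lower (MMP8, neutrophil collagenase, -2.58, and HP, haptoglobin, -0.88). Both lower genes were at low levels. MMP8 stood at 1.26 to 1.52 CPM under number 1 and 0.16 to 0.27 CPM under number 2. HP stood at 1.23 to 3.40 CPM in the 6 libraries. CHI3L1 (2703 to 3091 CPM, log2 difference -0.03) and MMP9 (603 to 750 CPM, 0.16), also of this list, were not called. The median of the 7 tested genes was -0.03.

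Genes that mature and sort the enzymes had 2 of 10 called in each direction and a median of 0.14. LYST, a vesicle-trafficking gene mutated in Chediak-Higashi syndrome, which causes giant granules, was higher under number 2 (log2 difference 1.17, adjusted p = 8.335e-05), in every label. HSP90B1, a chaperone of the endoplasmic reticulum, was also called (0.49), but its numbers overlapped: only the libraries labelled shALKBH5 2 (998 CPM) and ALKBH5 rescue 2 (1147 CPM) were high, and shCtrl had 706 CPM under number 1 and 650.2 CPM under number 2. CALR, the calreticulin chaperone that binds the myeloperoxidase precursor, was lower (-0.54, adjusted p = 0.00212), as was AP3D1, a subunit of the AP-3 sorting adaptor (-0.30). CTSC, the gene for cathepsin C, had a log2 difference of -0.15 that was not called (adjusted p = 0.183). In haem synthesis, 1 of 8 genes was called higher (PPOX, 0.98) and 3 lower, among them ALAS1, the first enzyme of the pathway (-0.53), and CPOX (-0.53), with a median of 0.06. Of 11 genes that build the glycosaminoglycan chains of serglycin, 2 were called higher (CHPF, 0.71, and XYLT1, 0.57) and 4 lower, CSGALNACT1 (-1.64) and CHST15 (-0.53) among them, with a median of 0.03.

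The protease inhibitors other than SERPINB1 had the lowest median of the 10 lists, at -0.78, with 7 of 11 tested genes called lower and 2 higher. SLPI, the secreted inhibitor of elastase and cathepsin G, stood at 115 to 141 CPM under number 1 and 40.5 to 44.2 CPM under number 2, a log2 difference of -1.57 (SE 0.10, adjusted p = 8.696e-06). A2M (alpha-2-macroglobulin) and SERPINB8 were also lower (-1.54 and -0.78). CSTA, an inhibitor of cysteine cathepsins, was higher (1.19, adjusted p = 0.000128).

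Among 11 transcription regulators of granule genes, 2 were called higher and 3 lower under number 2, with a median of 0.06. GFI1, a repressor needed for granulocyte maturation, was higher, with 186 to 197 CPM under number 1 and 260.0 to 274 CPM under number 2 (log2 difference 0.48, adjusted p = 0.000959), and RUNX1 was higher as well (0.37). IRF8, which directs progenitors to monocytes, was lower (-0.56, adjusted p = 0.00058), as was CEBPB (-0.55). SPI1 (PU.1), CEBPA and MYB were not called, with log2 differences of -0.15, 0.18 and 0.06. Of 12 related serine proteases and peroxidases, 2 were tested and 1, CFD, was called. Of 13 other MS4A genes, 6 were tested and 3 were called, all higher, among them MS4A7 (1.74) and MS4A6A (1.5), with MS4A14 at 0.78. Of 9 exocytosis genes, 4 were called higher, including the fusion proteins SNAP23 (0.97), STXBP3 (0.57) and STXBP2 (0.37), and 1 lower, the vesicle protein VAMP8 (-0.46), with a median of 0.31.

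**Figure D5:**
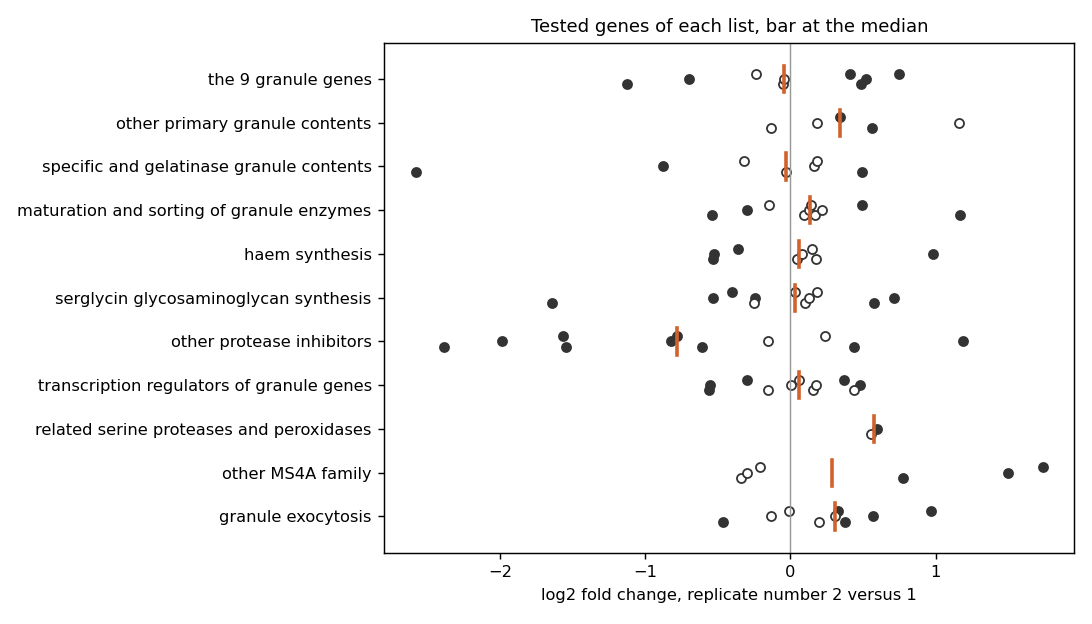
Log2 fold change of replicate number 2 against 1 for each tested gene of the 9 members and of the 10 lists, filled where the adjusted p was under 0.05, with an orange bar at the median of the list. The protease inhibitors have the lowest median (-0.78), and the members' median lies at -0.04.

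The genes most like the members in log2 CPM over the 6 libraries, among the 9309 protein-coding genes whose mean reached 10 CPM, were PSTPIP2 for MPO (Pearson r = 0.9988), PSMA5 for ELANE (0.9914), PXMP2 for PRTN3 (0.9981), FEZ1 for AZU1 (0.9986) and ASB13 for CTSG (0.9994). The second in each case were SLC25A23, AGPAT2, PIH1D1, UBXN6 and POLDIP2. These values are descriptions over 6 libraries that fall apart by number: 1446 genes had r of at least 0.95 with CTSG and 1034 with MPO, whereas 21 had it with ELANE, which was not called between the numbers.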

How the data were processed

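The authors deposited an estimated count, a TPM value and lengths for 179973 transcripts per library. The submitters' processing notes name CASAVA, kallisto 0.43.1 and hg38. Quantification options and strand use were not given in the sources used here. The labels' protocols describe oligo-dT selection, random priming and PCR without mention of molecular identifiers.

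Deposited estimated counts and TPM were summed per gene with GENCODE 29 (GRCh38), which matched 163714 transcripts (91.0%); the unmatched ones held 3.13% to 3.32% of counts. Rounded sums entered edgeR 4.0.16 under R 4.3.3 (TMM, filterByExpr, quasi-likelihood test, all 6 libraries, 1 coefficient per group, Benjamini-Hochberg threshold 0.05). Replicate number was tested with group as a covariate. The SE of a fold change was derived from its F statistic as |log2 fold change| / sqrt(F). Scripts were tested on simulated data. Same-numbered libraries deviated together from their group means (correlations 0.597, 0.685 and 0.727), so the titles' numbers were used as a block. With 2 libraries per group, these correlations show only that the groups share a difference between the numbers. They cannot show that same-numbered libraries are paired replicates, and the block also takes out the ALKBH5 difference between the numbers. A block on the number lowered the biological coefficient of variation from 27.7% to 10.6%.

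Members, lists and motifs were chosen with earlier results of these data known. Named are the members, up to 4 called genes per list by p (2 if none), the 2 nearest protein-coding genes on each side and the 2 most correlated genes; other genes were named after their values were seen. Alternatives were RLE, DESeq2 1.42.0, limma 3.58.1 voom, other filters, the block and leaving out each library. Promoters are RefSeq's; protein sequences were not used here. The values of some listed genes are not reported here.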

Additional observations from a re-analysis of the deposited data

Results flagged for a closer look

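The difference between the replicate numbers was itself compared between labels, by testing 1 label's number difference against that of the other labels together. This test was chosen after the patterns of CTSG and MS4A3 had been seen and has 1 residual degree of freedom, so its p-values restate those patterns and give them no independent support. For the libraries labelled ALKBH5 rescue it called 2 of the 9 genes, where 6.59% of all 14497 genes were called. CTSG had a number difference lower by a log2 value of -0.608 than in the other labels (SE 0.18, edgeR adjusted p = 0.0202), with -1.53 in ALKBH5 rescue, -0.85 in shCtrl and -1.0 in shALKBH5. MS4A3 had a number difference higher by 0.8109 (SE 0.24, edgeR adjusted p = 0.0159), with 1.28 in ALKBH5 rescue, -0.04 in shCtrl and 0.93 in shALKBH5. For shCtrl against the other labels, MS4A3 had a value of -1.15 that was not called (adjusted p = 0.23). Each of these values rests on a single library per label and number.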

How the results depend on the processing

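No member was called between labels under RLE, DESeq2, limma-voom, either other filter or the replicate block. The block moved the count of all genes called from 0 to 1 for shALKBH5 against shCtrl and from 0 to 1 for ALKBH5 rescue against shCtrl, and it changed no member call. The log2 difference of CTSG, close to 0 in these comparisons, changed sign for ALKBH5 rescue against shALKBH5 from -0.01 to 0.01111 with RLE, 0.009564 with DESeq2 and 0.004903 without a filter, and for ALKBH5 rescue against shCtrl from 0.03 to -0.05545 with limma-voom and -0.08474 with the replicate block; the cause was not tested. MPO lost its call between numbers with DESeq2 (-0.71), and the other 5 calls between numbers held under RLE, DESeq2, limma-voom and both filters.

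Each library was left out in turn, from the fit without the block and, as a choice made after the data were seen, from the fit with it. Genes called ranged from 0 to 420 for shALKBH5 against shCtrl (the highest without ALKBH5 rescue 1), 0 to 1005 for ALKBH5 rescue against shALKBH5 (without ALKBH5 rescue 2) and 0 to 764 for ALKBH5 rescue against shCtrl (without ALKBH5 rescue 1), all values above 0 coming from the block fit with fewer libraries. Between ALKBH5 rescue and shCtrl, MS4A3 was the only member called, and only in the block fit without ALKBH5 rescue 1 (log2 difference 0.78). That fit leaves 1 library under the label ALKBH5 rescue. Genes called between numbers ranged from 3915 of 14919 tested (without shALKBH5 1) to 6811 of 14987 (without ALKBH5 rescue 1). Without shALKBH5 2 they were 4030 of 14966. Members called were 4 of 9 without shALKBH5 1 or shALKBH5 2, and 5 of 9 without any of the other libraries. Each member count is to be read against the count over all genes in the same fit. For shALKBH5 against shCtrl, the log2 differences that changed sign when 1 library was left out ranged from -0.55 to 0.24 for MPO, -0.39 to 0.31 for LYZ, -0.55 to 0.51 for CTSG, -0.082 to 0.097 for SRGN, -0.33 to 0.82 for MS4A3, -0.35 to 0.22 for AZU1 and -0.45 to 0.22 for PRTN3. For ALKBH5 rescue against shALKBH5, the log2 differences that changed sign when 1 library was left out ranged from -0.27 to 0.46 for MPO, -0.11 to 0.22 for SERPINB1, -0.22 to 0.33 for LYZ, -0.97 to 0.58 for CTSG, -0.14 to 0.026 for SRGN, -0.61 to 0.72 for MS4A3, -0.12 to 0.35 for AZU1 and -0.20 to 0.35 for PRTN3. For ALKBH5 rescue against shCtrl, the log2 differences that changed sign when 1 library was left out ranged from -0.47 to 0.38 for MPO, -0.28 to 0.047 for SERPINB1, -0.37 to 0.33 for LYZ, -0.93 to 0.59 for CTSG, -0.14 to 0.042 for SRGN, -0.29 to 1.01 for MS4A3, -0.25 to 0.31 for AZU1, -0.39 to 0.27 for PRTN3 and -0.12 to 0.13 for ELANE. Between numbers, the uncalled genes SRGN and ELANE changed sign, at -0.095 to 0.021 for SRGN and -0.097 to 0.042 for ELANE. A lone library left in a group was assumed to vary like the other groups. Depth limits MPO most, at 27 to 64 counts per library.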

Other observations

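Genes next to the other members differed in size and direction between the numbers. Beside MPO, TSPOAP1 stood at 97.7 to 106 CPM under number 1 and 24.9 to 27.1 CPM under number 2, a log2 difference of -1.95 (SE 0.09, edgeR adjusted p = 2.473e-06), and SUPT4H1, a transcription elongation factor gene, had -0.99 (adjusted p = 7.732e-05). Beside LYZ, YEATS4, a subunit gene of chromatin-remodelling complexes, was higher under number 2 by 1.72 (adjusted p = 5.257e-05), and CPSF6, on the other side, had 0.03 and was not called (adjusted p = 0.796). Beside SERPINB1 lie 2 other intracellular serpin genes, of which SERPINB9, the inhibitor of granzyme B, was lower (-0.61, adjusted p = 0.0271) and SERPINB6 was higher (0.44, adjusted p = 0.00767). The nearest MS4A gene to MS4A3, MS4A2, stood at 0.98 to 2.0 CPM and was not called (-0.30, adjusted p = 0.393).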
